A study of Mus musculus with 6 samples.

Results

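The data described here are the levels of 10 marker genes of macrophages, the phagocytes of the tissues, in cultures labelled as mouse mesenchymal stem cells. The genes are Csf1r, Cd68, Adgre1, Mrc1, Lyve1, Clec10a, Cd163, Mertk, Spi1 and Fcgr1, and they are 10 of the 18193 genes measured on the arrays. They were chosen by their values in these data, because Lyve1, Clec10a and Mrc1 differed most between the 3 experiments. Differences between experiments are therefore described with no test. The difference between irradiated and control cultures played no part in the choice and was tested. The cells came from a commercial supplier and grew in α-MEM with 5% serum. All 6 cultures, controls included, had received 1 µM rosiglitazone, 5 µg/ml insulin, 100 µM isobutylmethylxanthine and 1 µM dexamethasone, renewed 48 h before the exposure. In each of 3 experiments 1 culture was irradiated for 2 h at 2.52 THz and 1 control culture was kept beside it at 26 to 27 °C, so that each group held 3 cultures. The design text calls the experiments independent and biological, and states that both cultures of an experiment were at the same point of differentiation. RNA was taken right after the exposure and read on 1 Affymetrix array per culture, so that 6 arrays set the precision.

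Macrophages depend on the receptor Csf1r, through which the growth factors Csf1 and Il34 keep them alive, and on the transcription factor PU.1, which Spi1 encodes and which binds purine-rich sites near myeloid genes. Many macrophages of connective tissue and fat carry the mannose receptor Mrc1, the lectin Clec10a and the hyaluronan receptor Lyve1 on their surface. Lyve1 is also a marker of lymphatic endothelium, and glucocorticoids such as dexamethasone are known to raise Cd163 and Mertk in macrophages.

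RefSeq promoter windows of 300 bases (build GRCm38.p6, 250 before and 50 after the gene start) were at hand for 5 members, Mrc1, Cd68, Mertk, Fcgr1 and Cd163. Of these, Mrc1 differed most between experiments and Cd68 and Mertk least, and their windows are shown for that reason, read 5′ to 3′. Capitals mark the PU.1 core GAGGAA on either strand. The Mrc1 window is chr2:14229164-14229463 (plus strand), that of Cd68 chr11:69666121-69666420 (minus strand) and that of Mertk chr2:128698665-128698964 (plus strand).
Mrc1: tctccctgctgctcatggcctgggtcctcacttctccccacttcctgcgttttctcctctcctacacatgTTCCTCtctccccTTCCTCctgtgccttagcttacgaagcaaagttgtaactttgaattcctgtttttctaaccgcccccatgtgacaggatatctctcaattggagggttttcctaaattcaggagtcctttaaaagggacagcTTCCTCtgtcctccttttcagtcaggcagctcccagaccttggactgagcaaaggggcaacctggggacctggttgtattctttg
Cd68: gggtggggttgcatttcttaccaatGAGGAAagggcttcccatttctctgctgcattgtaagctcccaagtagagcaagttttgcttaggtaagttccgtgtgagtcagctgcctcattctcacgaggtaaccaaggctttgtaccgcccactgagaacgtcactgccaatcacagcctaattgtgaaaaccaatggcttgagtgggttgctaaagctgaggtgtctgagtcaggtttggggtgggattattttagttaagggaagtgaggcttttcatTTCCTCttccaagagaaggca
Mertk: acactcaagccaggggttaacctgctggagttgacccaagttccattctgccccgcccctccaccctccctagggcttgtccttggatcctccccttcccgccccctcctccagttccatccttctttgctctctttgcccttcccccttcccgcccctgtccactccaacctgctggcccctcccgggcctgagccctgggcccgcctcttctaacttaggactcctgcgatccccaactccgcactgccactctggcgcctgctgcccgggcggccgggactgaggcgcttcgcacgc

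The Mrc1 window held 3 matches to this core, starting at -180, -167 and -35 from the gene start, and that of Cd68 held 2, at -225 and 29. Fcgr1 had 1 match, at -55, and Mertk and Cd163 had 0. Of all 32851 promoter windows of this length, 28.3% held a match. The AP-1 motif TGANTCA matched 2 times in Cd68 and in 0 of the others (7.81% of all windows). Both strands were searched, and these motifs can overlap. A match is a run of letters and not a measured binding site. Whether these matches bear on the differences between experiments was not tested.

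The cultures gave signal for most of the macrophage markers. On the log2 scale of the arrays, where the median gene lay at 6.46, 8 of the 10 markers had a mean level at or above that median, and Fcgr1 (6.335) and Cd163 (4.70) lay below it. Levels also depend on each gene's probes, so that they give no ratio between genes. Of 14 general myeloid genes 12 were at or above the median gene, among them the leukocyte phosphatase Ptprc (9.82 ± 0.17, SD, n = 6 cultures), the integrin Itgam (7.85 ± 0.37) and the lysozyme gene Lyz2 (14.17 ± 0.066). Of the labelled cell type, 9 of 10 mesenchymal stromal genes were at or above the median, with Thy1 at 3.875 as the exception, and so were the 5 measured fat-cell genes. Defining genes of other blood cells were dim: 0 of 6 T and NK cell genes, 0 of 3 B cell genes, 0 of 6 mast cell genes and 0 of 7 dendritic cell genes reached the median, and 1 of 8 neutrophil genes did, S100a8. In bulk RNA, fewer cells of a type and less RNA per cell cannot be told apart.

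The macrophage markers were lowest in experiment 1. All 10 had their lowest experiment mean there and their highest in experiment 3, an order found in 18.3% of all 18193 genes. For 8 of the 10, all but Cd163 and Spi1, both cultures of experiment 1 lay below all 4 others, against 8.15% of all genes. For 5 of the 10, both cultures of experiment 3 lay above all 4 others, against 5.04% of all genes. The median range of the experiment means was 0.46 log2 units over the members, 0.13 over all genes and 0.10 over the brighter genes (those from the median level upward). The set was chosen because Lyve1, Clec10a and Mrc1 differed most between experiments, so these counts are not independent of the choice. Nothing is read from them. The plot of levels by experiment shows each culture.

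**Figure D1:**
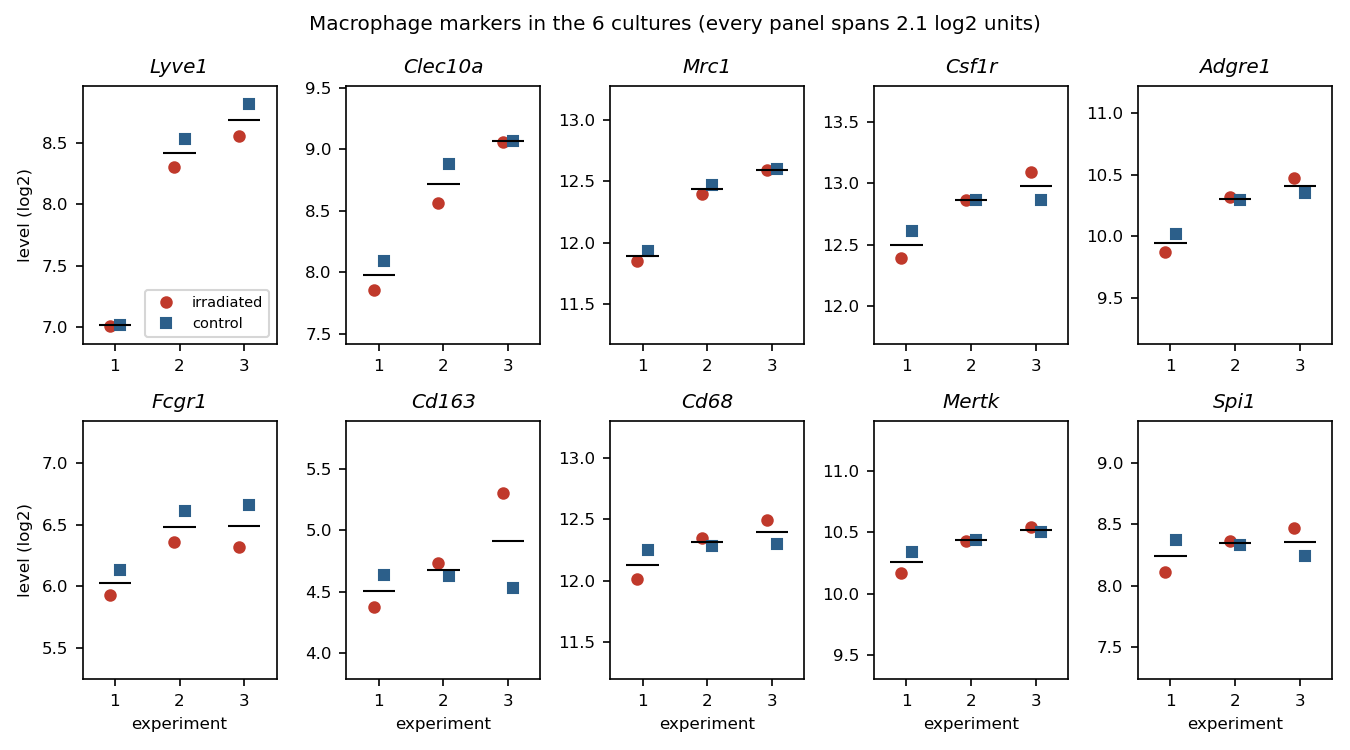
Level (log2) of each of the 10 markers in the 3 experiments, irradiated cultures as circles, controls as squares and the mean of both as a bar, with 1 panel per gene and the same span on every axis. Lyve1 stands at 7.01 and 7.02 in experiment 1 and between 8.30 and 8.81 in the others, while the Spi1 cultures overlap between all 3 experiments.

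Of the surface receptors, Lyve1, which binds hyaluronan, differed most. It stood at 7.01 (irradiated) and 7.02 (control) in experiment 1, at 8.30 and 8.53 in experiment 2 and at 8.55 and 8.81 in experiment 3. Both cultures of experiment 1 were low and close to each other, and the other 4 lay well above. The experiment means spanned 1.665 log2 units, or 3.17-fold, the largest range of all 18193 genes, and the 2 cultures of an experiment were at most 0.26 apart. A second, dimmer probe set of Lyve1 read 5.78 and 6.12, 7.11 and 7.14, and 7.19 and 7.34 in the same order. It too put both cultures of experiment 1 below the rest.

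Clec10a, a lectin for galactose-type sugars, stood at 7.86 (irradiated) and 8.09 (control) in experiment 1, at 8.56 and 8.88 in experiment 2 and at 9.06 and 9.07 in experiment 3. The 3 experiments did not overlap. The means spanned 1.09 log2 units (2.13-fold), the ninth largest range, with a gap of up to 0.32 within an experiment. Mrc1, the mannose receptor, stood at 11.85 and 11.93, at 12.40 and 12.47, and at 12.59 and 12.60. Its cultures did not overlap between experiments either, and the range of 0.705 (1.63-fold) compares with a gap of at most 0.08 between cultures of 1 experiment. Of all genes, 53 had a range at least as large as that of Mrc1 (0.291%). Most of the span lay between experiment 1 and the others. Without experiment 1 the ranges were 0.265 for Lyve1, 0.345 for Clec10a and 0.16 for Mrc1.

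The lineage receptor Csf1r stood at 12.39 (irradiated) and 12.61 (control) in experiment 1, at 12.86 in both cultures of experiment 2 and at 13.09 and 12.86 in experiment 3. Experiment 1 was low, and experiments 2 and 3 met at 12.86. The range of the means was 0.475 log2 units, against a largest gap of 0.23 within an experiment. The range was 0.70 in irradiated cultures alone, 0.25 in controls alone and 0.115 without experiment 1. Both other Csf1r probe sets also had experiment 1 lowest, at 10.64 and 10.90 where the rest lay between 11.13 and 11.42, and at 9.36 and 9.55 where the rest lay between 9.80 and 10.06. Adgre1, an adhesion receptor widely used to mark mouse macrophages, stood at 9.87 and 10.02, at 10.32 and 10.29, and at 10.47 and 10.35, a range of 0.465, or 0.105 without experiment 1. It resembled Csf1r, and among 9098 candidate genes it was the third nearest to Csf1r in its pattern over the 6 cultures.

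Fcgr1, the high-affinity receptor for antibodies, stood at 5.93 (irradiated) and 6.13 (control), at 6.36 and 6.61, and at 6.32 and 6.66 in experiments 1 to 3. Experiment 1 was low, and the other experiments overlapped, with a range of 0.46. Cd163, which takes up haemoglobin bound to haptoglobin, stood at 4.38 and 4.64, at 4.73 and 4.63, and at 5.30 and 4.53. Its range of 0.405 was smaller than the gap of 0.77 within experiment 3, where the irradiated culture alone stood high. The Cd163 probe set was dim, and RMA tends to understate changes of dim probe sets.

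Cd68, a lysosomal glycoprotein, stood at 12.01 (irradiated) and 12.25 (control), at 12.35 and 12.28, and at 12.49 and 12.30. Mertk, a receptor kinase for the uptake of dying cells, stood at 10.17 and 10.34, at 10.43 and 10.44, and at 10.54 and 10.50. Both genes had a range of 0.265. For Cd68 this was close to its largest gap within an experiment, 0.24, and its range in controls alone was 0.050. For Mertk the largest gap was 0.17, and its 3 experiments did not overlap. Spi1, the gene of PU.1, stood at 8.11 and 8.37, at 8.36 and 8.33, and at 8.47 and 8.24, and its range of 0.115 was smaller than the gap of 0.26 within experiment 1. Between experiments 1 and 3 Lyve1 differed by 1.665 log2 units, Csf1r by 0.475 and Spi1 by 0.115. The set was chosen for its largest differences, and probe sets can respond unequally. Nothing is therefore read from these unequal sizes.

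**Figure D2:**
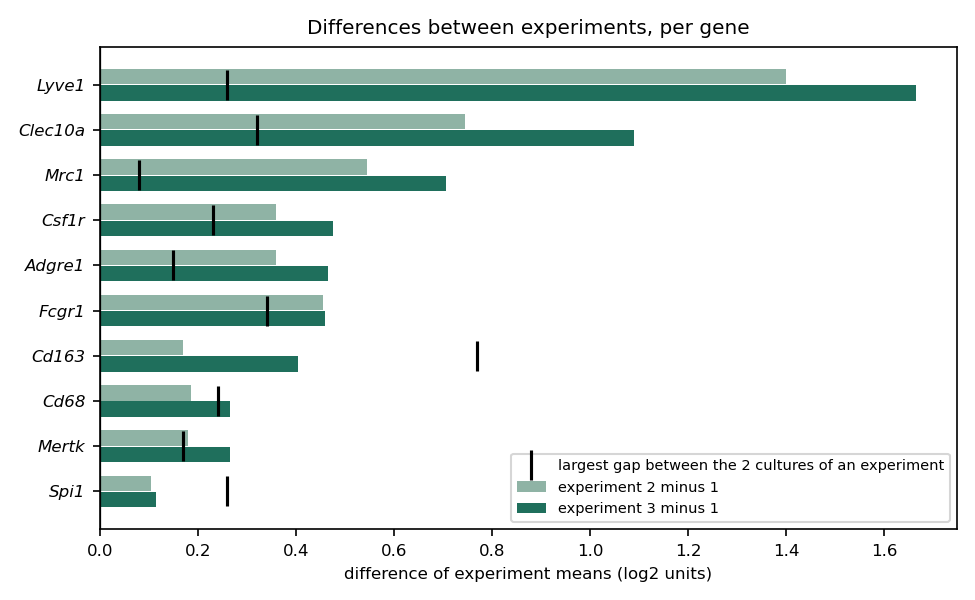
Difference of the experiment means from experiment 1 (log2 units, bars) for each marker, with a tick at the largest gap between the 2 cultures of 1 experiment. For Lyve1, Clec10a, Mrc1, Csf1r, Adgre1, Fcgr1 and Mertk both bars lie beyond the tick. For Cd68 only the bar of experiment 3 does, and for Spi1 and Cd163 neither does.

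Genes of the other macrophage lists gave a mixed picture. In bulk RNA the cells that made each transcript, ligands and bridging proteins included, were not identified. Of 14 general myeloid genes, 12 had both cultures of experiment 1 below all 4 others, including Ptprc, Itgam, the lipopolysaccharide co-receptor Cd14, the adaptors Tyrobp and Fcer1g, and Laptm5 and Cd53 of leukocyte membranes. Lyz2 and the fractalkine receptor Cx3cr1 did not. Over all genes the share with this pattern was 8.15%. The median difference between experiments 3 and 1 was 0.38 log2 units in this list and -0.005 over all genes. Itgam had the largest range, 0.63, followed by Cd14 at 0.50 and Laptm5 at 0.44. In the list of Fc, scavenger and engulfment genes 4 of 13 lay lowest in both cultures of experiment 1, namely the inhibitory Fc receptor Fcgr2b (range 0.78), the scavenger receptors Stab1 (0.64) and Msr1 (0.175), and Fcgr3 (0.405). Marco (0.070), Trem2 and the Mertk ligands Gas6 and Pros1 did not, and the bridging protein Mfge8 was highest there.

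Of 18 genes of resident and alternatively activated macrophages 4 were lowest in both cultures of experiment 1, against 8.15% of all genes. They were the transglutaminase F13a1 (range 0.755), Ms4a7 (0.625), the interleukin 4 receptor chain Il4ra (0.475) and the platelet factor Pf4 (0.465). Folr2, a folate receptor often found with Lyve1 on resident macrophages, had a range of 0.070, and Cbr2, a carbonyl reductase, one of 0.105. Of 10 measured genes of the CSF1 axis and of myeloid transcription factors, 6 were lowest in both cultures of experiment 1, led by Irf8 (range 0.47) and the shared cytokine receptor chain Csf2rb (0.455). The ligand Csf1 had experiment means of 11.17, 10.92 and 10.945, so that it was highest in experiment 1, and Il34 was at 5.76, 5.485 and 5.77. Among 10 inflammatory genes 3 were lowest in both cultures of experiment 1, of which the cytokine Il6 had the second largest range of all genes, at 1.395. Its cultures stood at 5.22 (irradiated) and 5.75 (control), at 6.22 and 6.51, and at 6.82 and 6.94, while Il1b (3.93), Nos2 (4.91) and Tnf (5.11) were dim, with ranges of 0.085, 0.080 and 0.35.

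Markers of endothelium were mostly dim. Among lymphatic genes, Prox1, the transcription factor that defines that lineage, had a mean level of 2.97 and a range of 0.070, and Mmrn1 was at 2.625. Pdpn (8.91) and Flt4 (6.48) were brighter, with experiment means of 9.005, 8.855 and 8.88 for Pdpn and of 6.59, 6.47 and 6.395 for Flt4, neither lowest in experiment 1. No gene of the 5 measured lymphatic or 9 vessel genes had both cultures of experiment 1 below all others, against 8.15% of all genes. Lists this short can hold none at that share. Of the 9 vessel genes 0 reached the median gene level. Pecam1, an adhesion molecule of endothelial junctions, stood at 3.02. Kdr, a receptor for vascular growth factors, and the scavenger receptor Stab2 had their experiment means in the same order as Lyve1. The means were 5.485, 5.55 and 5.745 for Kdr and 4.32, 4.42 and 4.43 for Stab2. This rising order held for 2 of 9 vessel genes, 0 of 5 lymphatic genes and 18.3% of all genes. Both Kdr cultures of experiment 3 lay above all others, as in 5.04% of all genes. Averaged over a list, the deviation from each gene's own mean ran from -0.12 to 0.15 over the 6 cultures for the lymphatic list and from -0.065 to 0.056 for the vessel list.

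Stromal genes went the other way in part. For 3 of 10, the collagen genes Col1a1 and Col1a2 and the receptor Pdgfrb, both cultures of experiment 1 lay above all 4 others, against 8.75% of all genes, and none lay below. The stromal list deviated from its own mean by 0.14 (irradiated) and 0.11 (control) in experiment 1, by 0.13 and -0.14 in experiment 2 and by -0.062 and -0.17 in experiment 3. The macrophage markers stood at -0.44 and -0.26, at 0.071 and 0.14, and at 0.29 and 0.20 in the same order. The irradiated culture of experiment 2 was thus above the mean in both lists. The part of the stromal share in the macrophage values was not tested. RNA quality, read as the level of the 3′ minus the 5′ control probe set of actin, was 0.57 and 0.54 in experiment 1, within 0.50 to 0.57 for 5 arrays, and 0.68 in the control of experiment 3.

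**Figure D3:**
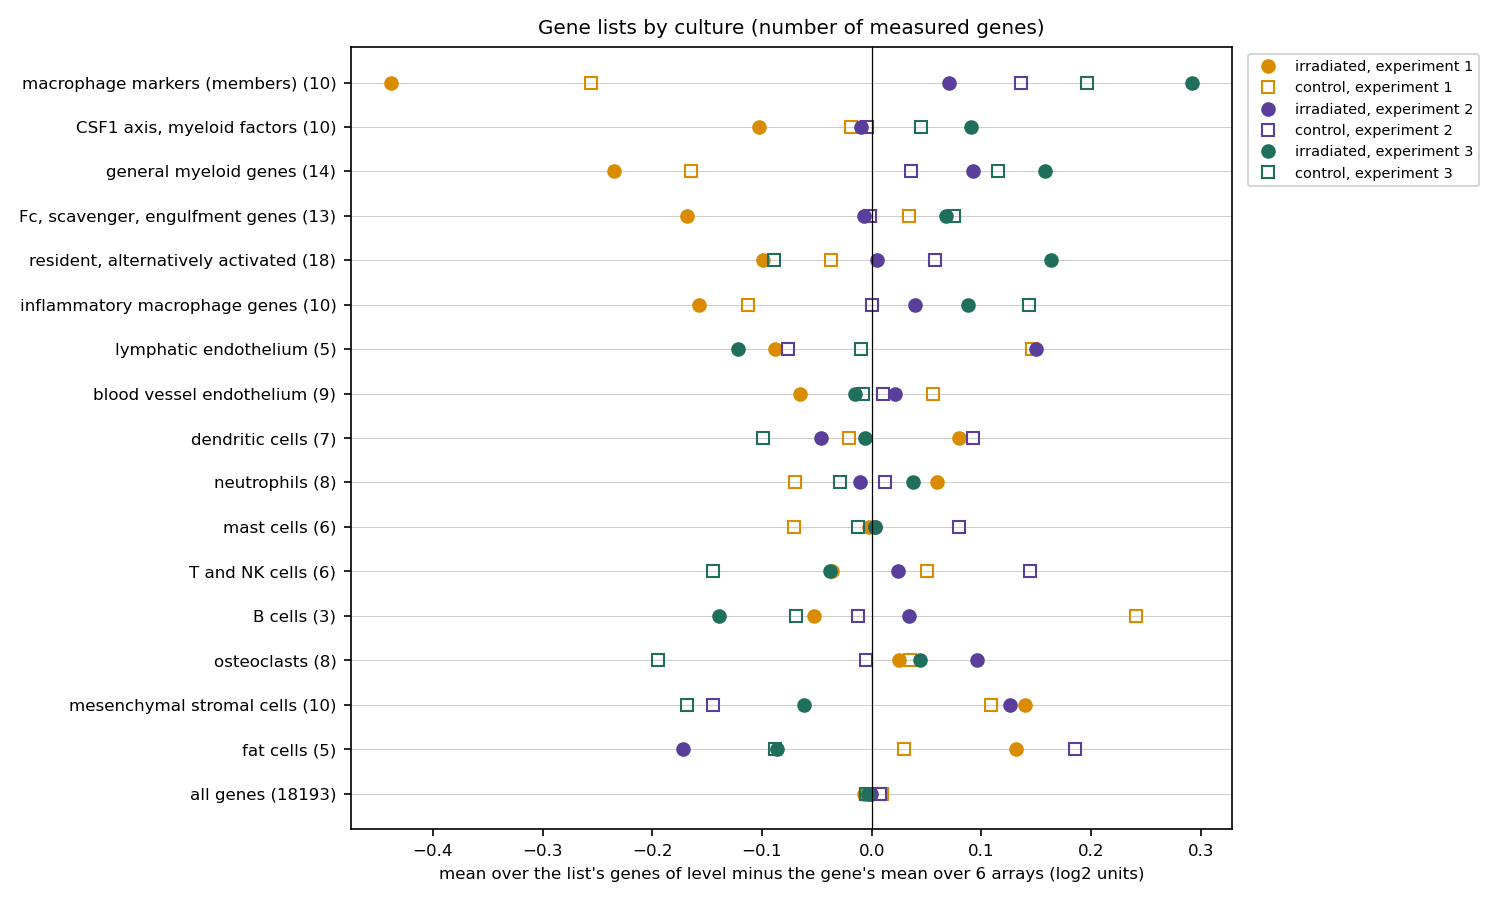
Mean over each list's genes of the level minus the gene's own mean over 6 arrays (log2 units), for irradiated (filled circles) and control cultures (open squares) of the 3 experiments. The macrophage markers lie at -0.44 and -0.26 in experiment 1 and above 0 in the other 4 cultures, while all genes together lie close to 0.

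Genes with the most similar pattern were sought among the 9098 other genes that reached the median level, by the root mean square difference of the 6 values after each gene was centred on its mean. For Clec10a the nearest was the acute-phase gene Saa3 (difference 0.075 log2 units, where the spread of Clec10a itself was 0.47), with experiment means of 12.025, 12.905 and 13.24. It was followed by Pgap6 (0.14), the chemokine receptor Ccr1 (0.175), the kinase Prkcb (0.18), Mrc1 (0.18), the inhibitory receptor Pirb (0.19), the complement gene C1qc (0.20) and Npl (0.20), an enzyme of sialic acid breakdown. For Mrc1 the nearest were Npl (0.050, spread of Mrc1 0.30), Pirb (0.060), Gfra4 (0.062), the clathrin adaptor gene Ap1b1 (0.077), Ccr1 (0.088), Frmd4b (0.088), Aoah (0.091), which inactivates lipopolysaccharide, and Prss16 (0.093).

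No gene came as close to Lyve1 (spread 0.74), whose range was the largest. Its nearest were Saa3 (0.24), Clec10a (0.31), the chemokine Ccl12 (0.37), Pgap6 (0.43), Mrc1 (0.44), the protease Adamts15 (0.44), the chemokine Cxcl13 (0.45) and Fcgr2b (0.45). Il6, with the second largest range of all genes, had a mean level of 6.24, below the median gene, and was not a candidate. For Csf1r (spread 0.22) the nearest were Gdpd3 (0.029), the nucleotide receptor P2ry6 (0.029), Adgre1 (0.039), the endocytic adaptor Dab2 (0.039), Igsf6 (0.045), Inpp5d (0.051), the lipid phosphatase of blood cells, Hcls1 (0.053) and Ncf4 (0.053), a subunit of the phagocyte oxidase. Clec10a and Mrc1 were both among the 8 nearest to Lyve1, Mrc1 was among those of Clec10a, and none of the 8 nearest to Csf1r was in the other 3 sets. The measure was not scaled for spread, so genes with ranges of like size tend to fall near each other. Lyve1, Clec10a and Mrc1 were the genes whose large differences led to the choice. Nothing is therefore read from these overlaps.

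**Figure D4:**
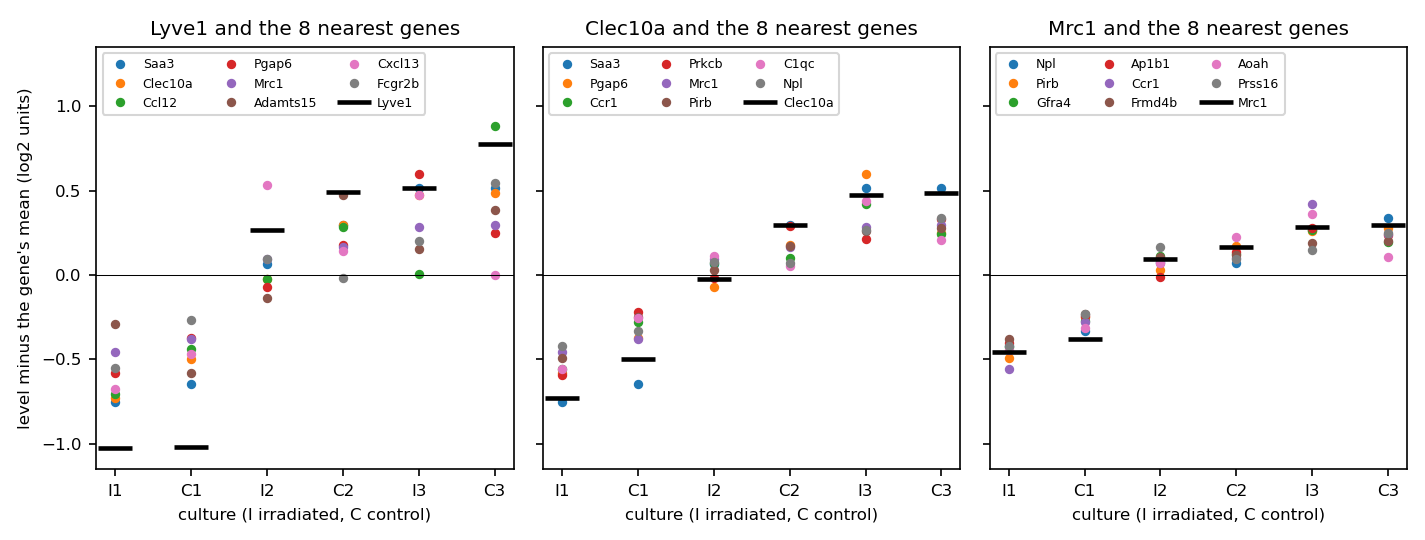
Level minus the gene's own mean (log2 units) in the 6 cultures for Lyve1, Clec10a and Mrc1 (black bars) and the 8 genes nearest to each (points). The points lie close to the bar for Mrc1, whereas Lyve1 lies below all of its 8 neighbours in both cultures of experiment 1.

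Irradiation gave no called change in any marker. In limma, paired by experiment, 0 of the 10 markers passed and 0 of 18193 genes did (0%) after Benjamini-Hochberg adjustment. At an unadjusted p under 0.05 it gave 603 genes, of which 1 was a marker, Fcgr1. Without the replicate block limma also called 0, with 649 genes at that p. The estimates of the markers ran from -0.26 to 0.20 log2 units with a median of -0.023, where all genes had a median of -0.010.

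Fcgr1 was lower in the irradiated culture of each pair, by -0.20, -0.25 and -0.34 log2 units in experiments 1 to 3 (mean -0.26, SE 0.079, 95% interval -0.45 to -0.074). Its limma p was 0.0135 unadjusted and 0.995 after Benjamini-Hochberg adjustment, so that it did not pass. The dimmer Fcgr1 probe set averaged -0.057 (SE 0.10), with the irradiated culture higher in experiment 1 at 5.45 against 5.29. The 2 probe sets thus differed for this gene.

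Clec10a, Lyve1 and Mrc1 also had the irradiated culture lower in 3 of 3 pairs. The differences were -0.23, -0.32 and -0.010 for Clec10a (mean -0.19, SE 0.091), -0.010, -0.23 and -0.26 for Lyve1 (mean -0.17, SE 0.087) and -0.080, -0.070 and -0.010 for Mrc1 (mean -0.053, SE 0.077). Each of the 3 genes had a pair at -0.010, the last digit to which the values are given. The share of all genes lower in 3 of 3 pairs was not computed. The limma p of all 3 genes was 0.995 once adjusted by Benjamini-Hochberg. The second Lyve1 probe set averaged -0.17 (SE 0.097).

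The lineage markers split by experiment. All 10 markers were lower in the irradiated culture of experiment 1, with a median of -0.21 log2 units where the median gene was at -0.030. In experiment 2, 5 were lower and 4 higher (median -0.0050), and in experiment 3, 4 were lower and 6 higher (median 0.080). The share of all genes lower in each pair was not computed, so nothing is read from these counts. Csf1r stood at -0.22, 0 and 0.23 in the 3 experiments, Cd68 at -0.24, 0.070 and 0.19, Adgre1 at -0.15, 0.030 and 0.12, and Spi1 at -0.26, 0.030 and 0.23. Their means were 0.0033 (SE 0.10), 0.0067 (SE 0.10), 0 (SE 0.087) and 0 (SE 0.11), and came from differences of opposite sign. Mertk averaged -0.047 (SE 0.083) and Cd163 0.20 (SE 0.18), the latter from -0.26, 0.10 and 0.77. Leaving out experiment 3 put Csf1r at -0.11, Cd68 at -0.085 and Cd163 at -0.080, and leaving out experiment 1 put them at 0.115, 0.13 and 0.435.

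The 95% intervals of all 10 markers lay within 2-fold in either direction, and those of 9 within 1.5-fold. The exception was Cd163, at 0.85 to 1.56-fold. These limma intervals hold for each gene singly and bound changes in the RMA values. In the other macrophage lists limma called no gene in either direction. These held 10 CSF1 axis genes, 14 general myeloid genes, 13 Fc and scavenger genes, 18 resident and alternatively activated genes and 10 inflammatory genes. In this order 0, 0, 2, 1 and 1 had an unadjusted limma p under 0.05, against 603 of all 18193 genes. Those in the lists were the scavenger receptor Marco (-0.24, SE 0.083), Fcgr4 (-0.23, SE 0.087), the chemokine Ccl17 (0.28, SE 0.080) and Il6 (-0.31, SE 0.10). Ccl17 (mean level 4.69), Fcgr4 (6.35) and Il6 (6.24) lay below the median gene at 6.46. Medians of the 5 lists were -0.015, -0.0017, -0.067, -0.025 and -0.0050 log2 units.

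**Figure D5:**
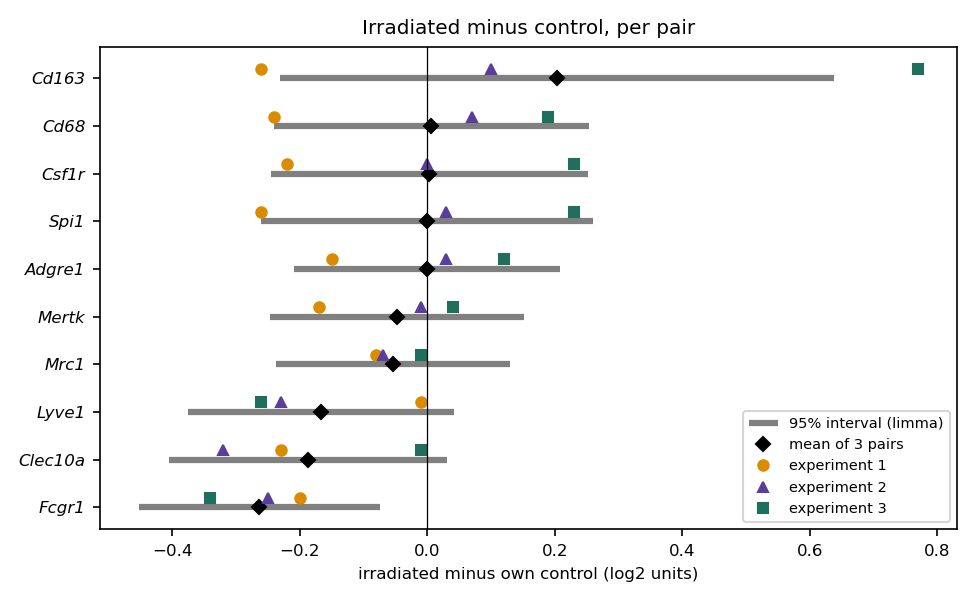
Irradiated minus own control (log2 units) for each marker, with coloured points for the 3 experiments, a diamond for their mean and a grey bar for the 95% interval from limma. Only the bar of Fcgr1 lies wholly on 1 side of 0, and it did not pass after adjustment (adjusted p 0.995 in limma).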

How the data were processed

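The authors deposited log2 values per probe set, made with RMA (background correction, quantile normalization, summary over probes), which would hide a change common to all transcripts. The submitters' processing notes name RMA, affy and limma, with versions not given in the sources used here. The log base was taken from the range, 1.73 to 14.53. Of 45037 probe sets, 34945 had exactly 1 symbol, and the brightest per gene was used (18193 genes, 14 member probe sets).

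limma 3.58.1 (R 4.3.3, lmFit and eBayes, checked on simulated data) was fitted over all genes with experiment as a block, two-sided, at a Benjamini-Hochberg adjusted p under 0.05. Pairs follow the study design, in which each control stood beside its irradiated culture. Same-numbered arrays' deviations correlated at 0.15, -0.090 and -0.012. Members, lists and rules were chosen with earlier results of these data known. The rule for named genes took all members, per list up to 3 genes of largest range and 2 of smallest p, genes that define a cell type, and the 8 genes nearest in pattern to Lyve1, Clec10a, Mrc1 and Csf1r. Not all of these are printed, and other list genes were named after their values were seen. Values of second probe sets come from the fit over all probe sets. No detection calls were used, so no gene is called absent.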

Additional observations from a re-analysis of the deposited data

How the results depend on the processing

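The irradiation test was repeated under 10 planned settings: no replicate block, a random replicate block, without each experiment in turn, the mean of a gene's probe sets, all probe sets, brighter genes alone (which leaves out Fcgr1 and Cd163), arrays centred on their median, and eBayes with intensity trend and robust estimation. limma called 0 genes and 0 markers in each, so the block changed no call. At an unadjusted p under 0.05 it gave 495 to 649 genes, but 240 among the 9099 brighter genes and 1696 over all 45037 probe sets. The adjusted p of a marker ran from 0.926 to 1. Of the single markers' estimates 6 reversed. Leaving out 1 experiment, Csf1r ran from -0.11 to 0.115, Cd68 from -0.085 to 0.13, Cd163 from -0.080 to 0.435 and Mertk from -0.090 to 0.015, and Csf1r was at -0.014 as the mean of its probe sets. Adgre1 and Spi1, whose estimates were 0 and had no direction, ran from -0.060 to 0.075 and from -0.115 to 0.13.

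The count of markers with experiment 1 lowest was 8 under 5 alternatives and 10 in irradiated cultures alone. Of the ranges between experiments 24 moved by more than the SD within experiments and 46 did not. The range of Cd163 was 0.92 in irradiated cultures alone and 0.11 in controls alone.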

Other observations

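Several macrophage genes differed between the irradiated culture and the control of experiment 3, and the genes named here were chosen after their values were seen. Retnla, a secreted protein of alternatively activated macrophages, stood at 10.06 in the irradiated culture and 8.22 in the control of experiment 3, a difference of 1.84 log2 units, against 0.15 and -0.31 in experiments 1 and 2. The chitinase-like gene Chil3 differed by 1.06 in experiment 3, against -0.10 and 0.090. Cd14 differed by 0.79, Cd163 by 0.77, Itgam by 0.65 and F13a1 by 0.57 in the same pair. In experiment 1 Cd14 was at -0.14, Itgam at -0.11 and F13a1 at -0.40. Others were lower in the irradiated culture of experiment 3, among them the co-stimulator Cd86 (-0.53), Aif1 (-0.51), Fcgr1 (-0.34), Fcgr2b (-0.34) and Lyve1 (-0.26). In experiment 2 the complement receptor Vsig4 differed by -0.67, against 0.13 and 0.41 in experiments 1 and 3. None was called by limma over the 3 pairs after Benjamini-Hochberg adjustment. Vsig4 (mean level 4.65), Cd163 (4.70), Cd86 (5.845), Fcgr1 (6.335) and Chil3 (6.36) lay below the median gene at 6.46. The control array of experiment 3 also had the highest 3′ minus 5′ difference for actin, 0.68, and for Gapdh, 0.11 where the others lay between -0.10 and -0.080. Its part in these differences was not tested.

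Osteoclasts arise from the same myeloid precursors as macrophages. Of 8 osteoclast genes 4 reached the level of the median gene, the phosphatase Acp5 (7.64), the protease genes Ctsk (9.60) and Mmp9 (10.83), and the proton pump subunit Atp6v0d2 (8.55). The calcitonin receptor Calcr (2.36) and the fusion gene Ocstamp (3.595) were dim. None of the 8 had both cultures of experiment 1 below all 4 others, against 8.15% of all genes. A list of 8 can hold none at that share. Acp5 had experiment means of 7.845, 7.71 and 7.36 and Ctsk of 9.765, 9.55 and 9.495, both highest in experiment 1. Mmp9 (10.69, 11.07 and 10.735) and Oscar (3.965, 4.065 and 4.03) were lowest there.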
